A study of Mus musculus with 15 samples.

Results

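The subject is a set of 582 transcripts of 113193 quantified in the chromatin-associated RNA of murine bone marrow-derived macrophages. Their level was low 1 h after lipopolysaccharide and back near, or above, the untreated level by 4 h. The cells were derived from bone marrow of C57BL/6 mice and taken at day 7 of differentiation in medium conditioned by L929 cells. They were left without treatment or exposed to lipopolysaccharide (LPS) at 10 ng/ml for 30 min, 1 h, 2 h or 4 h, with 3 libraries in each of the 5 groups. The labels do not say whether the 3 libraries of a group came from separate animals or cultures, and a p-value here reflects the variation among these libraries alone, which may be technical.

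LPS is a component of the outer membrane of Gram-negative bacteria. Macrophages sense it through the receptor TLR4, which activates the transcription factors NF-kB and AP-1 within minutes and, by a second branch, IRF3 and the type I interferon genes. RNA that stays with chromatin is enriched in transcripts still attached to, or newly released from, the polymerase, so its level follows transcription more closely than the level of RNA in whole cells. In such bulk samples, fewer cells of a type and less RNA per cell cannot be told apart.

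The members were chosen from measured values. Levels are TPM values, an abundance corrected for transcript length, rescaled to a total of 1000000 in each library after removal of 1 very abundant transcript, ENSMUST00000217116.1. That transcript took 9.66% to 41.2% of the estimated counts of a library. A fold is the group mean plus 1 over the untreated mean plus 1. A transcript was kept if its untreated mean was at least 5, its fold at 1 h at most 0.4, its 3 libraries at 1 h all below the 3 untreated libraries, and its fold at 4 h at least 0.7. Of 36142 transcripts with an untreated mean of at least 5, 4509 (12.5%) met the conditions on untreated and 1 h libraries, and 582 of these (12.9%) also met the condition at 4 h. The other 3927 stayed under a fold of 0.7 at 4 h and are used below as the most similar set. The member nearest to the limit at 1 h had a fold of 0.39957, and the nearest transcript beyond it 0.40001. At 4 h these values were 0.70077 and 0.69954, and the untreated means nearest to their limit were 5.00436 and 4.97433.

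The files name transcripts only by Ensembl identifiers, and no table used here pairs these with genes. The members therefore carry no gene names or functions, the macrophage label was not checked against marker genes, and at most 4 members are given by identifier. Isoforms of a gene may be among the members, and a change in how reads were divided among isoforms was not measured. Identical values in all libraries were shared by 14 of the members, which left 575 distinct profiles.

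The libraries held 7537521 to 11892599 estimated counts. The libraries at 30 min stood apart from each other: the median over the members was 9.24 rescaled TPM in replicate 1, 2.72 in replicate 2 and 5.51 in replicate 3. Over the 36142 transcripts with an untreated mean of at least 5, the same medians were 11.6, 6.63 and 10.5. Libraries with the same replicate number had positively correlated deviations from their group means in all 30 pairs, and blocked fits are therefore given beside the unblocked ones where the counts differ.

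As a group, the members were low at both 30 min and 1 h and were back by 2 h. The median over the 582 members was 13.1, 13.5 and 11.2 rescaled TPM in the 3 untreated libraries. It was 9.24, 2.72 and 5.51 at 30 min and 3.0, 2.44 and 2.74 at 1 h. At 2 h it was 12.8, 9.94 and 9.17, and at 4 h 17.8, 11.4 and 13.6. The medians at 2 h and 30 min overlapped only in replicate 1 at 30 min, which at 9.24 was just above the lowest median at 2 h. Together the members held 1.15% ± 0.129 of the rescaled TPM in untreated libraries, 0.613% ± 0.284 at 30 min, 0.266% ± 0.0369 at 1 h, then 1.17% ± 0.256 at 2 h and finally 1.67% ± 0.353 at 4 h (mean ± SD, n = 3). The low value at 1 h and the high values in untreated libraries and at 4 h follow from the choice of members, whereas the rule did not use the libraries at 30 min and 2 h.

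**Figure D1:**
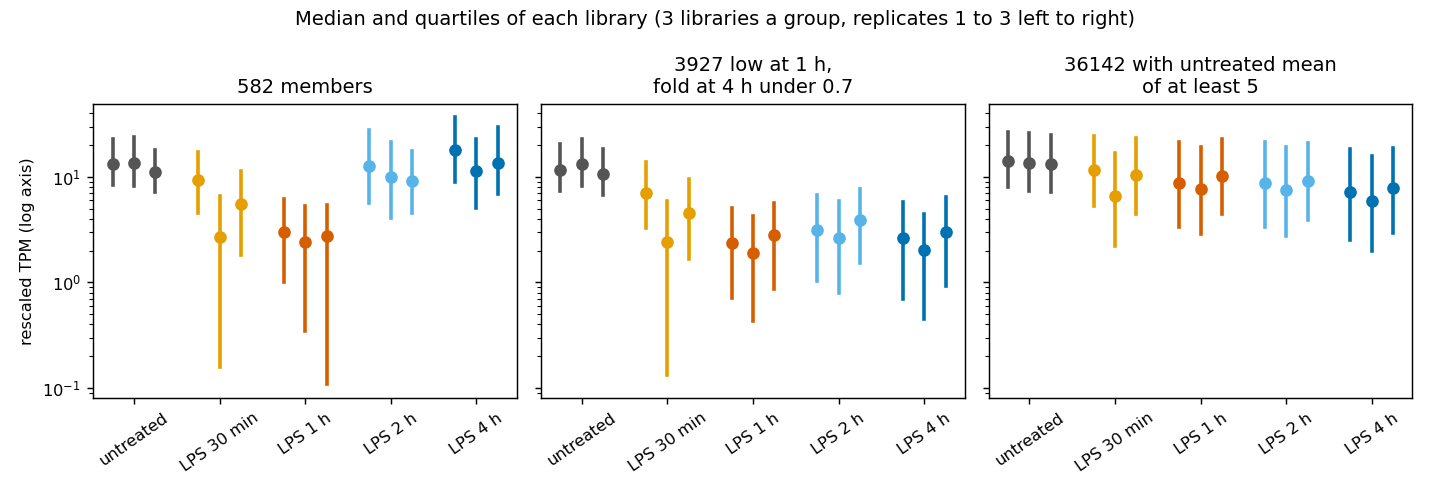
Level in each of the 15 libraries as the median (point) and the quartiles (bar) in rescaled TPM on a log axis, for the 582 members, the 3927 transcripts low at 1 h with a fold under 0.7 at 4 h, and the 36142 transcripts with an untreated mean of at least 5. The members' medians lay between 2.44 and 3.0 at 1 h and between 9.17 and 12.8 at 2 h, while those of the 3927 lay between 2.63 and 3.94 at 2 h.

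Most members were moderate in level. The untreated mean had a median of 13 rescaled TPM, with quartiles of 8.40 and 21.9 and a maximum of 278. It reached 20 for 170 members, 50 for 33 and 100 for 10. The median member had 8.74, 5.87 and 5.46 estimated counts at 1 h, against 58.2, 35.9 and 25.1 in the untreated libraries, so that the depth at the low point was a few reads for many of them. At 1 h 34 members had no count in any of the 3 libraries. The members had a median length of 936.5 nt, against 1292 nt for the 3927 and 1508 nt for the transcripts with an untreated mean of at least 5. Under 1000 nt were 302 of the 582 members (51.9%), against 44.7% and 41.5% of these sets. Shorter transcripts give fewer reads at a given TPM, and the part of this in the choice of members was not tested.

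The scale on which the rule was set matters for what is called a return. On rescaled TPM the typical transcript with an untreated mean of at least 5 was low from the start, with a median fold of 0.750 at 30 min and 0.680 at 1 h. Its fold was 0.642 at 2 h and 0.552 at 4 h. The members had median folds of 0.516 and 0.281 at the early times, then 0.842 and 1.00 later. They were thus below the typical transcript at 30 min and 1 h and above it at 2 h and 4 h. The order at 1 h and 4 h follows from the limits of the rule. Folds at 30 min and 2 h are taken to untreated libraries that the rule also used, so this is a description. On CPM values scaled with TMM factors (a scaling to the typical transcript), the same thresholds selected 235 transcripts, of which 102 were members. CPM values are not corrected for transcript length, so the limit of 5 on the untreated mean is a different cut there. How many members were lost by that limit, and how many by the fold at 4 h, was not counted.

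The group means placed the low point mostly at 1 h, but not for every member. By the rule, untreated and 4 h means could not be the lowest, and the 1 h mean could not be the highest. The counts that follow are therefore a description. Of the 582 members, 503 (86.4%) had the lowest of their 5 group means at 1 h, while 61 had it at 30 min and 18 had it at 2 h. The highest mean fell in untreated libraries for 238 members and at 4 h for 241, with 88 more peaking at 2 h and 15 peaking at 30 min.

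**Figure D2:**
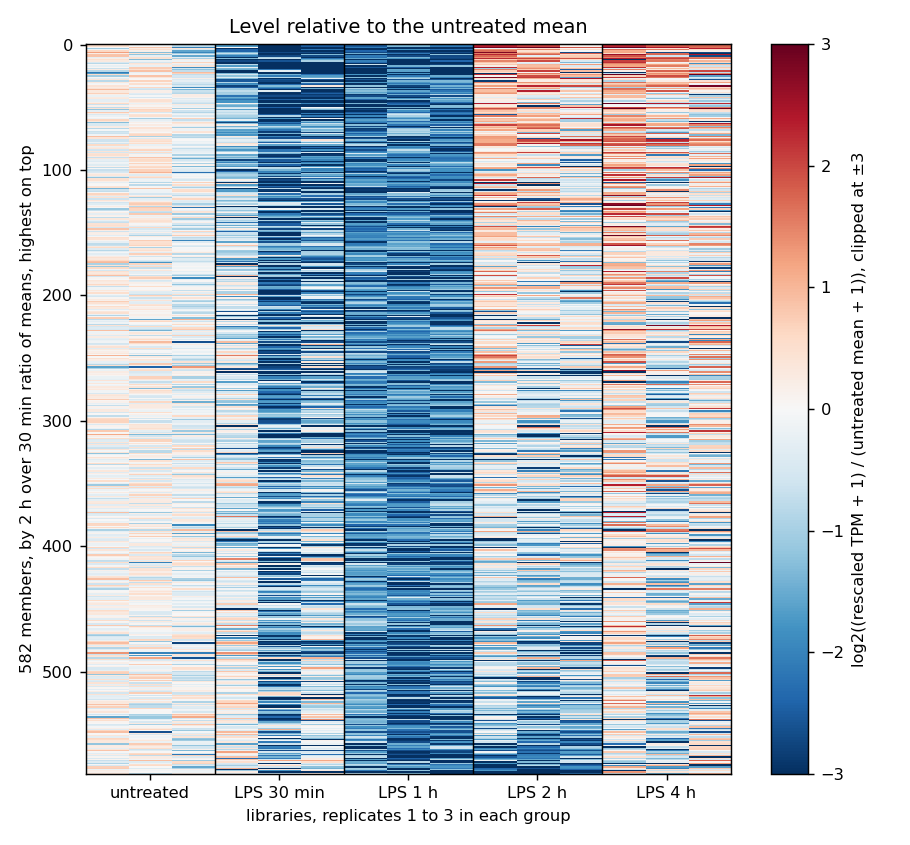
Each of the 582 members (rows) in each of the 15 libraries (columns), as log2 of the level plus 1 over the untreated mean plus 1, clipped at 3 in both directions. Rows run from the highest ratio of 2 h to 30 min at the top to the lowest at the bottom, and the low levels (blue) extend over 30 min and 1 h in the upper rows and over 1 h and 2 h in the lowest rows.

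Neither the 2 h nor the 30 min libraries entered the rule, so the order of these groups was not fixed by it. Their comparison is still not fully independent of the choice of members. Libraries with the same number had correlated deviations across groups, and the edgeR fit took its spread from all 15 libraries, including those the rule used. The rule also asked for a low level at 1 h and a higher one at 4 h, the times next to 30 min and 2 h. The 36142 transcripts set beside the members were not held to these limits, and 36.6% of them had a fold of at least 0.7 at 4 h. The part of this in the shares below was not tested. All 3 libraries at 2 h lay above all 3 libraries at 30 min for 137 of the 582 members (23.5%), against 8.48% of the 36142 transcripts with an untreated mean of at least 5. The opposite order held for 10 members (1.72%), against 11.2%. The mean at 2 h was above the mean at 30 min for 435 members (74.7%), against 41.9%. In pairs of libraries with the same number, the median log2 difference between 2 h and 30 min over the members was 0.32 for replicate 1, 1.49 for replicate 2 and 0.64 for replicate 3. Over the 36142 it was -0.28, 0.06 and -0.13. Replicate 1, whose library at 30 min was the highest of its group for 390 of the 582 members, thus gave the smallest difference, and it was still positive.

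By edgeR's quasi-likelihood test over all 46186 transcripts that passed a filter on low counts, 14 members were raised at 2 h against 30 min and 0 were lowered (Benjamini-Hochberg adjusted p under 0.05). The filter kept 518 of the 582 members. Over all tested transcripts 0.946% were raised (437) and 0.431% were lowered (199), which gives the background for these counts. At an unadjusted p under 0.05, 146 members were higher and 4 were lower, against 8.19% and 6.75% of all tested. DESeq2 called 88 members raised and 1 lowered, against 4.2% and 3.97% of all tested. Limma on log2(rescaled TPM + 1) called 31 raised and 0 lowered, against 1.6% and 1.21%. With the replicate number as a block in edgeR, 78 members were raised and 0 lowered, including all 14, while 4.36% of all tested transcripts were raised and 2.7% lowered. When 2 choices were changed together, with the most abundant transcript removed and libraries scaled by their totals in place of TMM, the split over all transcripts was 286 raised and 232 lowered.

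The median log2 fold change of the 518 members tested was 1.02 at 2 h against 30 min, with quartiles of 0.24 and 1.90, against a median of -0.01 for all tested transcripts. Of the 518, 262 (50.6%) had a log2 fold change of at least 1, against 19.5% of all tested. In a fit without the filter, which held all 582 members, the median was 0.99, 481 were positive and 4 were called raised. Over all 83649 transcripts in that fit, 36433 were positive, 202 were called raised and 73 were called lowered. The count of 14 rested on every library of both groups: it was 4, 1 and 0 without replicate 1, 2 or 3 at 30 min and 0, 0 and 7 without replicate 1, 2 or 3 at 2 h, and it was 0 when only these 2 groups were fitted. Calls over all transcripts fell likewise in the same fits. The 437 raised became 61, 33 and 0, then 13, 0 and 275, and 0 with only these 2 groups. The median over the members stayed between 0.80 and 1.49 in these and the other settings tried, with that of all tested transcripts between -0.21 and 0.10.

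**Figure D3:**
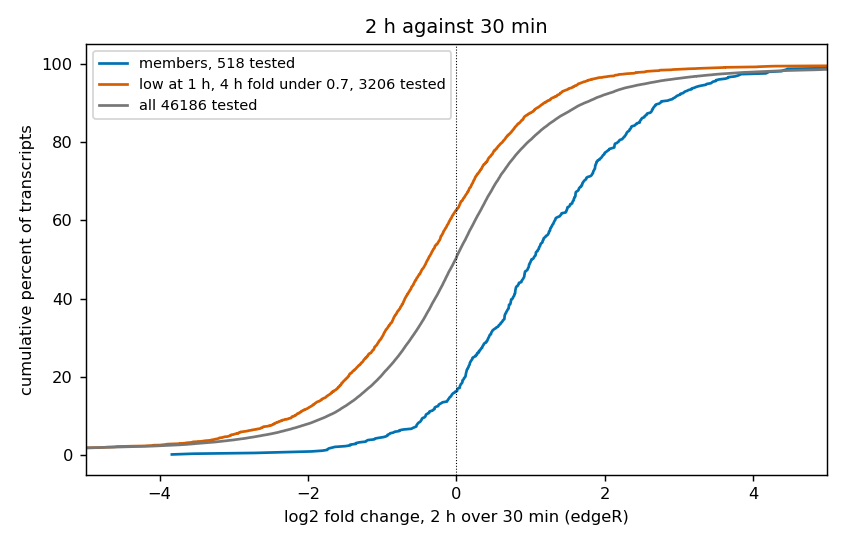
Cumulative percent of transcripts by edgeR log2 fold change of 2 h over 30 min, for the 518 members tested, the 3206 tested transcripts that were low at 1 h with a fold under 0.7 at 4 h, and all 46186 tested. The members' curve lies to the right, with a median of 1.02, against -0.38 for the 3206 and -0.01 for all tested.

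The 3927 transcripts that met the same conditions in untreated libraries and at 1 h, but not at 4 h, differed from the members at 2 h against 30 min. All 3 libraries at 2 h lay above all 3 at 30 min for 23.5% of the members and 3.69% of the 3927, and the opposite order held for 1.72% and 15.5%. The test called 14 raised and 0 lowered among the 518 members tested, and 2 raised and 44 lowered among the 3206 of the 3927 tested, against 0.946% raised and 0.431% lowered of all tested. With the replicate block the counts were 78 and 0 for the members and 20 and 160 for the 3927, against 4.36% and 2.7%. The 44 lowered also rested on every library of both groups: they were 2, 1 and 0 without replicate 1, 2 or 3 at 30 min, 1, 0 and 8 without replicate 1, 2 or 3 at 2 h, and 0 when only these 2 groups were fitted. Over all transcripts the 199 lowered became 21, 8 and 0, then 4, 0 and 67, and 0 in the same fits. At 30 min the sets were closer, with medians of 9.24, 2.72 and 5.51 rescaled TPM over the members in replicates 1, 2 and 3 and of 7.02, 2.43 and 4.57 over the 3927. At 2 h they stood apart, with 12.8, 9.94 and 9.17 over the members and 3.13, 2.63 and 3.94 over the 3927. The sets were separated by the level at 4 h only, and the difference between them at 2 h was not tested beyond these counts.

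The 14 members that passed the test are described by their values, since their number is small. Their log2 fold changes at 2 h against 30 min ran from 1.96 to 5.26 with a median of 3.05 (adjusted p from 0.0207 to 0.0423), and all 14 had every library at 2 h above every library at 30 min. The median of their means was 14.4 rescaled TPM in untreated libraries, 4.00 at 30 min, 3.88 at 1 h, then 34.6 at 2 h and finally 40.1 at 4 h. Their medians at 30 min and 1 h were thus similar. For 4 of the 14, which were called for high values at 2 h, all 3 libraries at 2 h also lay above the 3 untreated libraries, against 6.01% of the members and 5.64% of transcripts with an untreated mean of at least 5. They were between 634 and 5204 nt long, with a median of 2590 nt.

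ENSMUST00000130451.1 (5204 nt) had the smallest p of the members at 2 h against 30 min. It had 31.9, 33.1 and 21.4 rescaled TPM in untreated libraries, 14.2, 7.34 and 8.42 at 30 min, and 7.01, 8.20 and 12.9 at 1 h. Its later levels were 29.4, 36.0 and 35.6 at 2 h and 31.4, 30.0 and 23.5 at 4 h. The levels at 30 min and 1 h overlapped and lay below all the others, and the levels at 2 h and 4 h overlapped those of untreated libraries. The mean was 33.7 ± 3.71 at 2 h and 10.0 ± 3.72 at 30 min (SD, n = 3), a log2 fold change of 1.96 ± 0.33 (SE, edgeR adjusted p = 0.0207). These levels rested on 534 to 879 estimated counts at 2 h and 104 to 338 at 30 min.

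ENSMUST00000185983.6 (2564 nt), second by p, had 7.08, 12.8 and 7.90 rescaled TPM in untreated libraries, 1.17, 0.841 and 1.49 at 30 min and 1.01, 3.45 and 3.19 at 1 h. It had 10.3, 16.2 and 7.18 at 2 h and 7.89, 8.78 and 7.08 at 4 h. Its mean was lower at 30 min (1.16 ± 0.323) than at 1 h (2.55 ± 1.34), with overlapping libraries. The mean at 2 h was 11.2 ± 4.59, a log2 fold change of 3.5 ± 0.59 over 30 min (SE, edgeR adjusted p = 0.0208). At 30 min it rested on 5.48 to 12.8 estimated counts.

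**Figure D4:**
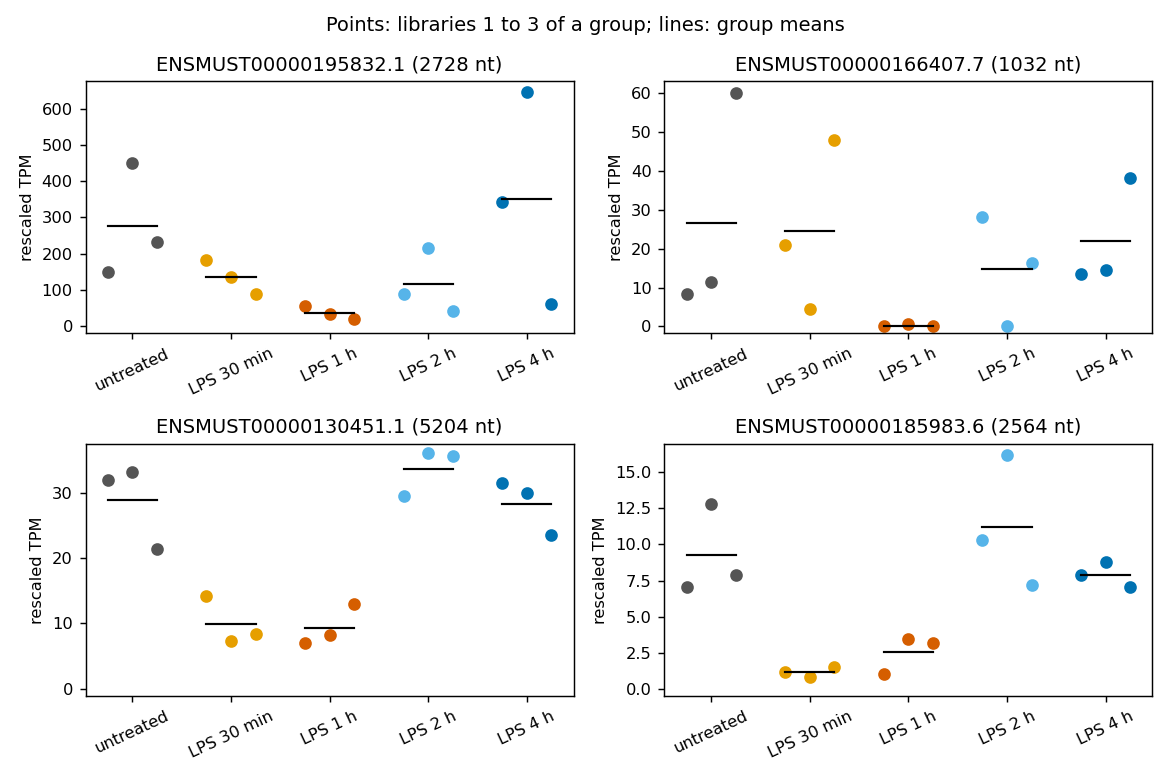
Rescaled TPM of the 4 members given by identifier, with a point for each library, in the order of replicates 1 to 3 within a group, and a line at the group mean. In the lower panels the levels at 2 h lie above those at 30 min without overlap, while in the upper panels these groups overlap.

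The most abundant members in untreated libraries showed the pattern with a wide spread. ENSMUST00000195832.1 (2728 nt), the first of them, had 149, 451 and 233 rescaled TPM in untreated libraries, 183, 135 and 88.1 at 30 min and 57.2, 33.3 and 21.2 at 1 h. It had 89.5, 215 and 42.0 at 2 h and 342, 645 and 62.6 at 4 h. At 4 h replicate 3 was thus close to replicate 1 at 1 h, and the return in the mean came from replicates 1 and 2. Its log2 fold change at 2 h against 30 min was -0.02 ± 0.81 (SE, edgeR adjusted p = 0.997).

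Of the 10 members with an untreated mean of at least 100 rescaled TPM, 2 had all libraries at 2 h above all libraries at 30 min. This order held for 7.96% of all transcripts with an untreated mean of at least 20, and the share from 100 upward was not counted. The fifth by untreated mean (1785 nt) had 322 ± 178 rescaled TPM at 2 h and 103 ± 42.9 at 30 min, against 140 ± 51.7 in untreated libraries, and reached 833 ± 351 at 4 h. Its log2 fold change at 2 h against 30 min was 1.85 (edgeR adjusted p = 0.0752, and 0.0111 with the replicate block). The eighth (557 nt) had 144 ± 52.5 at 2 h and 27.8 ± 39.3 at 30 min, against 124 ± 78.8 in untreated libraries (log2 fold change 2.67, edgeR adjusted p = 0.142, and 0.0233 with the replicate block). By contrast, the seventh (2053 nt) had its lowest mean at 2 h, with 26.6 ± 19.9 rescaled TPM against 42.0 ± 26.3 at 1 h, and had 103 ± 82.9 at 4 h.

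The member with the lowest fold at 1 h, ENSMUST00000166407.7 (1032 nt), illustrates a return that was seen in every library at 4 h but not at 2 h. It had 8.30, 11.5 and 60.2 rescaled TPM in untreated libraries and 20.9, 4.53 and 47.9 at 30 min. At 1 h it had 0.0236, 0.574 and 1.3e-08, which correspond to fewer than 2 estimated counts in each library. At 2 h it had 28.2, 0 and 16.4, and at 4 h 13.5, 14.4 and 38.2. Its fold at 1 h was 0.0434 and its mean at 30 min (24.4 ± 21.9) was close to the untreated mean (26.7 ± 29.1). The log2 fold change at 2 h against 30 min was -0.53 ± 1.31 (SE, edgeR adjusted p = 0.937).

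The members differed among themselves in how early they were low. The fold at 30 min was at most 0.4 for 179 (30.8%), at least 0.7 for 146 (25.1%) and between these limits for 257. A fold of at most 0.4 at 30 min was held by 39.1% of the 3927 and by 12.7% of transcripts with an untreated mean of at least 5. A fold of at least 0.7 was held by 15.1% and 55.9% of these sets. All 3 libraries at 30 min lay below all 3 untreated libraries for 201 members (34.5%), against 44.8% of the 3927 and 15.6% of the wider set, and the opposite held for 0 members, against 2.32% of the wider set. The untreated libraries were used in the choice of members, which makes them high there, so these shares are a description.

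Return by 2 h was likewise uneven. The fold at 2 h was at least 0.7 for 359 members (61.7%), at least 1 for 212 (36.4%), at least 2 for 51 (8.76%) and at most 0.4 for 58 (9.97%). Among transcripts with an untreated mean of at least 5 these shares were 44.6%, 24.9%, 7.2% and 23.6%. The share with a fold of at least 2 was thus near the background. All 3 libraries at 2 h lay above all 3 untreated libraries for 35 members (6.01%), against 5.64% of transcripts with an untreated mean of at least 5, a share near the background. They lay below all 3 for 97 members (16.7%), against 27.4%.

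Combining both times gave 4 corner profiles. The share of other transcripts in these classes was not counted, so the numbers are a description. A fold of at most 0.4 at 30 min and of at least 0.7 at 2 h was found for 113 members (19.4%), whose median means were 13 rescaled TPM in untreated libraries, 2.73 at 30 min, 2.22 at 1 h, then 14.2 at 2 h and finally 16.3 at 4 h. Their low level at 30 min and higher level at 2 h follow from the limits of the class. A fold of at least 0.7 at both times was found for 98 members (16.8%), with median means of 12.5, 10.9, 2.91, 16.3 and 21.3. Here too the limits, with the rule, place the low level at 1 h alone. A fold of at most 0.4 at both times was found for 17 members, with median means of 11.7, 1.59, 2.05, 2.09 and 10.1. The late profile, at least 0.7 at 30 min and at most 0.4 at 2 h, was found for 11 members, with 26.6, 20.3, 7.02, 6.86 and 18.6.

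**Figure D5:**
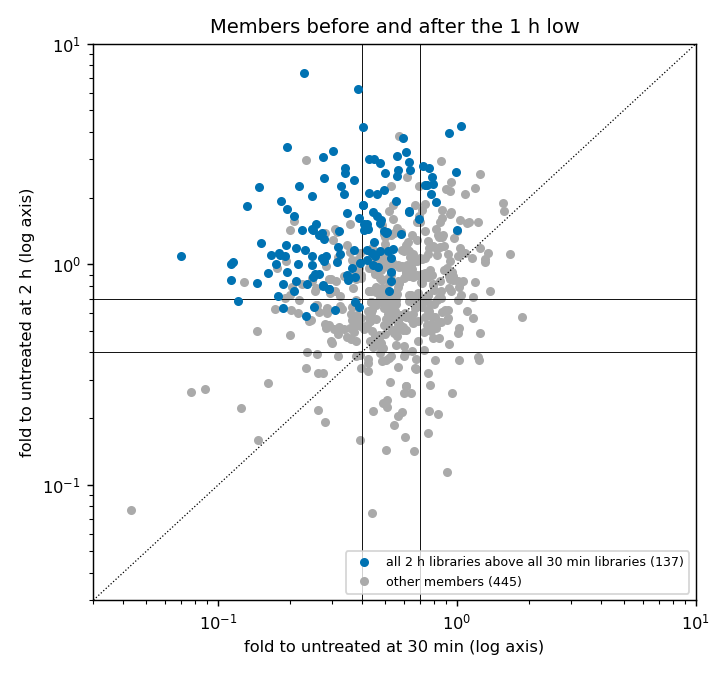
Fold to untreated of each member at 30 min (x axis) and at 2 h (y axis), both on log axes, with lines at 0.4 and 0.7 and a dotted diagonal. The 137 members whose libraries at 2 h all lay above those at 30 min are blue and lie above the diagonal, and 113 of the 582 members fall in the upper left region with a fold of at most 0.4 at 30 min and at least 0.7 at 2 h.

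Against untreated libraries, few members passed the test at 30 min or 2 h. At 30 min edgeR called 0 members raised and 0 lowered, against 0.351% and 0.0173% of all tested transcripts. At an unadjusted p under 0.05, 1 member was higher and 60 were lower, against 3.99% and 3.05%. With the replicate block 0 were raised and 2 lowered, against 0.916% and 0.0888%. DESeq2 called 0 raised and 15 lowered, against 1.73% and 0.699% of all tested. Limma called 0 raised and 4 lowered with either pseudocount, against 0.435% and 0.18% with a pseudocount of 1 and 0.383% and 0.0866% with 0.1. Without replicate 1 at 30 min edgeR called 0 members raised and 4 lowered, against 296 and 58 of all 48931 transcripts tested in that fit. At 2 h edgeR called 3 members raised and 1 lowered, against 1.97% and 0.591%, and 22 and 3 with the replicate block, against 6.42% and 3.06%. The 4 calls at 2 h became 1 without untreated replicate 1 or 2, 0 without untreated replicate 3 and 1 without replicate 2 at 2 h. Over all transcripts the 1184 calls became 356 and 158 without untreated replicate 1 or 2, 333 without untreated replicate 3 and 395 without replicate 2 at 2 h. The direction at 2 h depended on the scaling. Over all transcripts the split was 911 raised and 273 lowered with TMM factors, but 524 and 630 with library totals and the most abundant transcript removed, and 984 and 1800 in limma with a pseudocount of 1. The median log2 fold change of the 518 members tested was 0.27, -0.25 and -0.34 in these fits, against -0.03, -0.56 and -0.45 for all tested transcripts. Both comparisons share the untreated libraries with the rule.

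At 4 h, a time the rule used, the members ranged from just inside the limit to well above untreated libraries. Of the 582, 291 had a fold of at least 1, 86 (14.8%) of at least 2 and 13 (2.23%) of at least 4, with a maximum of 9.97. Of the 13240 transcripts with an untreated mean of at least 5 that also had a fold of at least 0.7 at 4 h, 56.6%, 19.5% and 6.89% reached these folds. The 13 included the 1785 nt member above. Another of them (3079 nt) had 96.9, 55.2 and 38.5 rescaled TPM in untreated libraries and 67.9, 22.4 and 14.8 at 30 min. It had 23.7, 11.1 and 8.25 at 1 h, 337, 192 and 70.5 at 2 h and 658, 345 and 307 at 4 h. Its libraries at 2 h lay above all those at 30 min, with a log2 fold change of 2.75 (edgeR adjusted p = 0.0685, and 0.00139 with the replicate block).

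The sixth by fold at 4 h (678 nt) was highest at 2 h, with 412, 452 and 211 rescaled TPM, against 56, 100 and 13.1 in untreated libraries. It had 57.2, 2.36 and 3.54 at 30 min, 12.2, 6.52 and 0.972 at 1 h and 458, 300 and 183 at 4 h. Its level at 30 min was that of untreated libraries in replicate 1 and far lower in replicates 2 and 3. The log2 fold change at 2 h against 30 min was 4.40 (edgeR adjusted p = 0.0799, and 0.00736 with the replicate block).

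The comparison of 2 h with 30 min was also made by length and by level. All libraries at 2 h lay above all libraries at 30 min for 24.8% of the 302 members under 1000 nt and 22.1% of the 280 longer ones, against 7.72% and 9.02% of transcripts of these lengths with an untreated mean of at least 5. By untreated mean the share was 22.1% of the 204 members from 5 to 10 rescaled TPM, 23.1% of the 208 from 10 to 20 and 25.9% of the 170 from 20 upward, against 8.02%, 9.50% and 7.96%. The members raised in the test numbered 4 of the 238 tested under 1000 nt and 10 of the 280 tested longer ones, against 0.598% and 1.27% of tested transcripts of these lengths with an untreated mean of at least 5. With the replicate block they numbered 24 and 54, against 3.2% and 5.96%.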

How the data were processed

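Quantification used kallisto 0.44.0, per the submitters' processing notes. The annotation release and build were not given in the sources used here. For 113193 Ensembl transcripts, the authors deposited an estimated count and a TPM value per library, beside lengths. Libraries were unstranded per the labels, so antisense and sense reads of overlapping genes are not distinguished. Estimated counts were rounded to whole numbers and tested with edgeR 4.0.16 in R 4.3.3: filterByExpr (minimum count 10, total 15), TMM scaling, 1 fit of 15 libraries with 5 group terms, Benjamini-Hochberg adjustment over all transcripts tested. SE of a log2 fold change is its size over the root of the F statistic. Alternatives used DESeq2 1.42.0 and limma 3.58.1 on log2(rescaled TPM + 1 or + 0.1). The pipeline was tested on simulated counts drawn independently for each library, with no replicate effect. That check does not cover the correlation among same-numbered libraries. Correlations of same-numbered libraries' deviations from their group means ran from 0.216 to 0.483 over 30 pairs. Over 60 pairs with different numbers they ran from -0.306 to -0.005. With deviations taken from group means, positive values for same numbers bring negative ones for different numbers, so the latter add no separate evidence. The fit with 5 group terms did not use the numbers, and its p-values leave this correlation out. Among the tests, only those with the replicate block treated the numbers as pairing the libraries.

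Identifiers were given, with no table of gene names, for the members of highest untreated mean, of lowest fold at 1 h and of the 2 smallest p among those higher at 2 h than at 30 min. Other members described singly were chosen after their values were seen. The members and lists were chosen with earlier results of these data known. Planned gene lists, marker lists and gene sums were not used, since they need gene names.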

Additional observations from a re-analysis of the deposited data

How the results depend on the processing

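The rule, applied to deposited TPM or with a pseudocount of 0.1, selected 507 and 672 transcripts, of which 481 and 550 were members. With a pseudocount of 5 it selected 205 (179 members) and with CPM and TMM factors, which drop the length correction, 235 (102 members). Leaving out 1 library of untreated, 1 h or 4 h cells gave 548 to 1036. Of the 582 members, 430 to 452 were still selected without 1 untreated library, 499 to 527 without 1 library at 1 h and 455 to 544 without 1 at 4 h. The 14 members called at 2 h against 30 min became 78 with the replicate block, 89 in DESeq2, 31 in limma with a pseudocount of 1, 7 with library size alone and the most abundant transcript removed (2 choices changed together), 4 without the filter and 0 with only the 2 groups, and 0 to 7 without 1 library. Calls over all transcripts, 636 in that comparison, became 3262 with the replicate block, 3773 in DESeq2, 1295 and 1055 in limma with pseudocounts of 1 and 0.1, 275 without the filter, 0 with only the 2 groups and 0 to 342 without 1 library. No call at 30 min against untreated cells became 2 with the replicate block, 15 in DESeq2, 4 in limma with either pseudocount and 0 to 4 without 1 library. The 4 calls at 2 h against untreated cells became 25 with the replicate block, 25 in DESeq2, 2 with library size alone and that transcript removed, 2 in limma with a pseudocount of 0.1, 1 without the filter, 0 with only the 2 groups and 0 to 3 without 1 library. Over all 46186 tested transcripts, the 1184 calls in that comparison became 4376 with the replicate block and 4335 in DESeq2. The 25 calls in each of these fits were among 518 members tested. The cause of these moves was not tested. The remaining alternatives stayed within 1.5 times, among them identical members counted once, added after the data were seen, which gave 14. In each setting of 2 h against 30 min the median over the members exceeded that of all transcripts, by 0.83 to 1.39 on the log2 scale. Sums over the transcripts of a gene could not be fitted.

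Depth limits the low point: the median member had 5.46 to 8.74 estimated counts a library at 1 h. Errors leave out the uncertainty of dividing reads among isoforms, which the files do not give.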
